A study of Mus musculus with 2 samples.

Results

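The dystrophin-glycoprotein complex was followed at the transcript level through 8 genes: Dmd, Utrn, Dag1, Sgca, Sgcb, Sgcd, Sgce and Dtna. These were taken by symbol from 17646 genes listed in the deposited tables, and all 8 were found by their Ensembl identifiers. The selection rule also speaks of syntrophin, but no syntrophin gene is among the 8, so the syntrophin genes examined are described with the other subunits. RNA came from hearts of BALB/c mouse embryos at embryonic day 13.5, with 1 wild-type (WT) library and 1 library from embryos with genotype SRSF10-/-, the knockout of the splicing factor gene Srsf10. The number of embryos behind each library is not given in the labels. Because each genotype has a single library, differences could not be checked against replicates or tested, and higher and lower describe these libraries alone.

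Dystrophin is a long rod-shaped protein that joins the actin cytoskeleton of muscle to a group of membrane proteins, and utrophin is its close relative, found more widely in embryonic tissue. Dystroglycan spans the membrane and binds laminin outside the cell and dystrophin or utrophin inside it. The sarcoglycans form a membrane subcomplex that steadies this link, and dystrobrevin and the syntrophins bind dystrophin inside the cell and carry signalling proteins. In striated muscle, loss of dystrophin or of some of the sarcoglycans causes muscular dystrophy, in some cases with disease of the heart muscle.

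The libraries held 39.6 M (WT) and 38.9 M (knockout) uniquely mapped reads. Srsf10 itself had 5245 reads in the WT heart and 212 in the knockout, 4.12% of the WT level. Y-linked genes had 2955 reads in WT and 18 in the knockout, so sex differed together with genotype. Cardiac transcripts were abundant in both: the 10 cardiomyocyte markers summed to 18327 RPKM in WT and 16955 in the knockout. RPKM is reads per kilobase of listed gene length per M reads of the library. None of the 8 genes lies on chromosome 4, where Srsf10 lies. In bulk tissue, fewer cells of a type and less RNA per cell cannot be told apart.

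The Dmd gene has several starts, and a gene total pools their transcripts. The 250 bases before the pair of Dmd starts listed by RefSeq (GRCm38.p6) are shown because Dmd had one of the 2 largest differences among the 8 genes. The same stretch is shown for Sgca, the sarcoglycan gene restricted to striated muscle, which differed in the other direction. Capitals mark E-boxes (CANNTG, which reads alike on both strands) and CArG boxes, the binding motif of serum response factor.
Dmd upstream start, chrX:82948620-82948869, plus strand: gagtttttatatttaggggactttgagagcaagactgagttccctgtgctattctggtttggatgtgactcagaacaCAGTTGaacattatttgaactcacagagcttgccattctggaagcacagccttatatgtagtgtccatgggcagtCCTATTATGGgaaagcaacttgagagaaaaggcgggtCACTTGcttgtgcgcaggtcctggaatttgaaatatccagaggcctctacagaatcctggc
Dmd downstream start, chrX:85048045-85048294, plus strand: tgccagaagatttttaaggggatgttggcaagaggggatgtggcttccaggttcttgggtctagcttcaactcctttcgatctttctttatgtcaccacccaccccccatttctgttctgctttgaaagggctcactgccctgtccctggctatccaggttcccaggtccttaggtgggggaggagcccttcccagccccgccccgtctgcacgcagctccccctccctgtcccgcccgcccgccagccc
Sgca, chr11:94976328-94976577, minus strand: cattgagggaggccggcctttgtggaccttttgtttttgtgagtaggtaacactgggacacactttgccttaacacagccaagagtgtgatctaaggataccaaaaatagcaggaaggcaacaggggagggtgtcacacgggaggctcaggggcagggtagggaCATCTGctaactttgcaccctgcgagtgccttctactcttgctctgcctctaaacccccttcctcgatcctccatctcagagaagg

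The upstream Dmd stretch held 2 E-boxes and 1 CArG box, whose first base lies 98 bases before the start. Of 32817 distinct promoter windows cut to the same length, 66.2% held at least 1 E-box and 1.47% a CArG box. The downstream Dmd stretch held neither motif and was richer in G and C (60.0% against 45.2% upstream). The Sgca stretch held 1 E-box, no CArG box and 52.8% G and C. The windows match letters only, and the deposited gene totals do not separate reads by start.

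All 8 genes were expressed, that is, reached 1 RPKM in one library or both. Dag1, which encodes both dystroglycan chains, was the most abundant by far, with 75.3 RPKM in the WT heart and 79.3 in the knockout heart. It made up 54.5% of the summed level of the 8 genes in WT and 52.6% in the knockout. Sgce, epsilon-sarcoglycan, came next at 18.3 and 24.9 RPKM, then Utrn at 14.1 and 16.5, and Sgca, alpha-sarcoglycan, at 13.7 and 11.5. Sgcb, beta-sarcoglycan, stood at 8.36 and 7.75 RPKM and Dmd at 4.36 and 6.14. Dtna, alpha-dystrobrevin, had 2.67 and 3.05 RPKM, and Sgcd, delta-sarcoglycan, had the lowest level at 1.34 and 1.48. On this scale, per listed length, the order of the 8 was the same in both libraries. In WT the 95% counting intervals of Utrn (13.8 to 14.5) and Sgca (12.8 to 14.6) overlapped, so these neighbours did not differ beyond counting error. In the knockout they were apart, at 16.1 to 16.8 and 10.7 to 12.4. Intervals are exact Poisson or binomial intervals and cover counting error only.

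**Figure D1:**
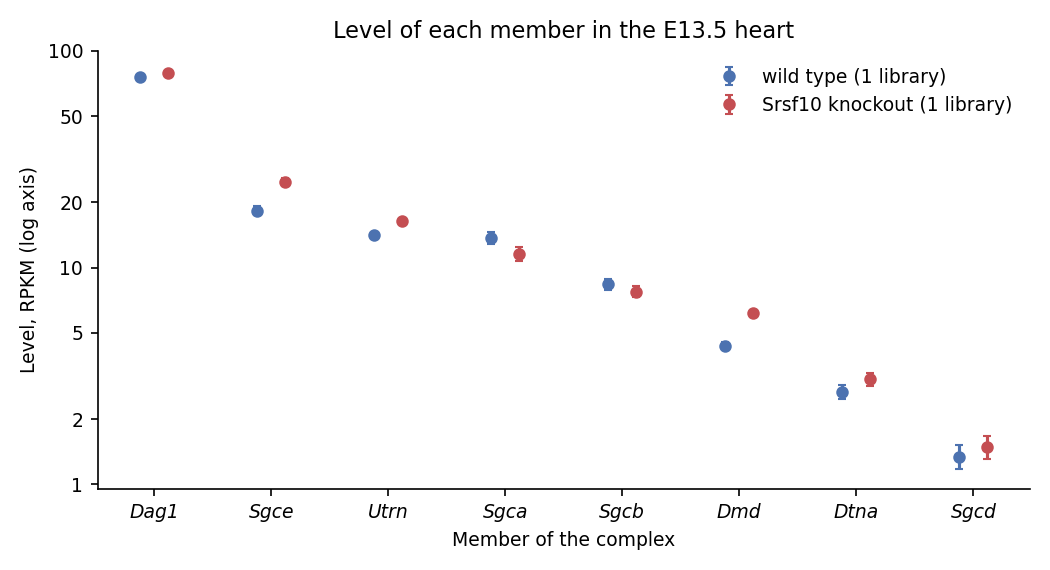
Level of each member in RPKM (log axis) in the wild-type and the Srsf10 knockout library, 1 library each, with exact 95% Poisson counting intervals as bars (most are smaller than the points). Dag1 stands far above the others, the order of levels per listed length is the same in both libraries, and Sgce and Dmd show the widest gaps between them.

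None of the 8 genes was 1.5-fold or more apart between the libraries. Across all 12329 expressed genes 2.95% were, counted on the log2 ratio of RPKM + 1, a scale that understates the ratio of low genes. The median log2 ratio (knockout over wild type) of the 8 was 0.11, beside -0.01 over all expressed genes. Of the members 6 were above 0 and 2 below, and of all expressed genes 48.2% were above 0. At a laxer rule, a level at least 25% higher in one library than in the other, 2 of the 8 were apart, Dmd and Sgce, beside 13.9% of all expressed genes. Fold values given below compare reads per library read and leave out the added 1, while counts of genes past 1.5-fold keep it.

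Dystrophin and utrophin, the cytoskeletal linkers, were both higher in the knockout heart. Dmd had 2577 reads in the WT library and 3561 in the knockout, 1.41-fold higher (1.34 to 1.48), and its log2 ratio of 0.41 exceeded that of 96.1% of expressed genes. Utrn had 6938 and 7928 reads, 1.16-fold higher (1.13 to 1.20), with 99.7% and 99.3% of its listed length covered. Within a library, where scaling between libraries plays no part, the Utrn level was 3.24 times that of Dmd in WT (3.10 to 3.39). In the knockout it was 2.68 times (2.58 to 2.79), so the ratio was 1.21-fold lower (1.14 to 1.28) there.

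Dmd and Utrn are the longest of the 8 genes, and across all genes the ratios were higher at greater length. Dmd has a listed length of 14910 bases and Utrn one of 12382. The 98 expressed genes over 12000 bases had a median log2 ratio of 0.17, and 8 of them, Dmd included, were at or above the Dmd value. For genes of over 2000 to 4000 bases the median was -0.03. Relative to the median of the long class, chosen after the data were seen, Dmd had a log2 ratio of 0.24 and Utrn one of 0.04. The same trend was seen with the span of the gene in the genome: 23 expressed genes spanned more than 1000 kb, Dmd and Sgcd among them, with a median of 0.16. Their upper quartile was 0.41, and 6 of the 23, Dmd included, were at or above the Dmd value. The part of length in the Dmd and Utrn values was not tested. Dmd is also X-linked and the libraries differed in sex, which cannot be told apart from genotype here. Over all 420 expressed genes of the X chromosome the median log2 ratio was 0.01. The listed length of Dmd was covered by reads to 89.7% in WT and 91.9% in the knockout. Reads thus lay along nearly the whole long transcript in both.

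**Figure D2:**
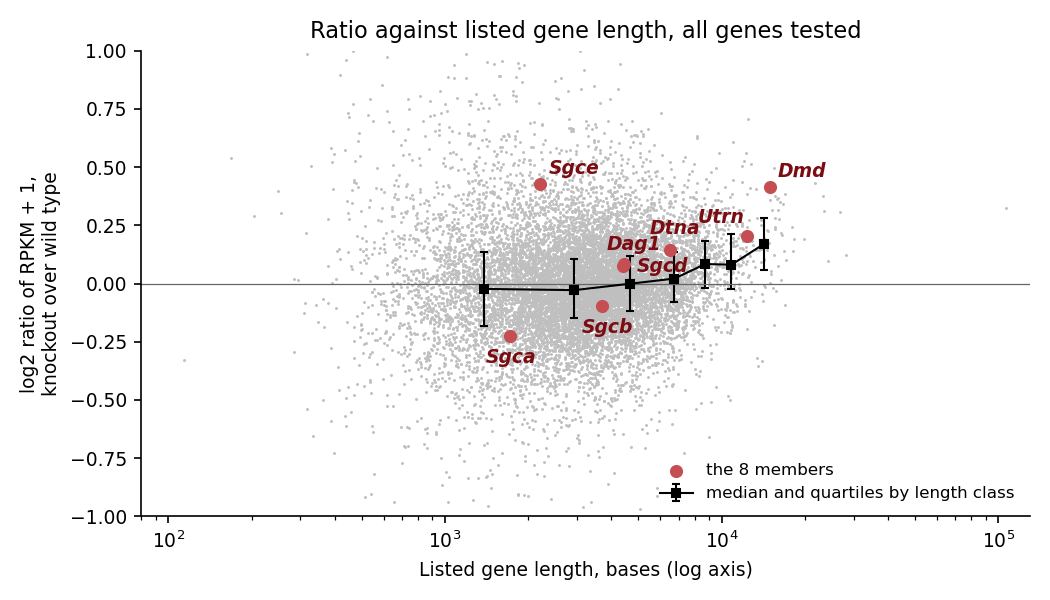
Log2 ratio of RPKM + 1 (knockout over wild type) against listed gene length in bases (log axis), 1 grey point per expressed gene and red points for the 8 members. The 67 genes beyond 1 or -1 are not drawn. Black squares give the median and quartiles of 7 length classes, which lie between -0.03 and 0.08 in the 6 shorter classes and at 0.17 in the longest, where Dmd and Utrn lie.

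Dystroglycan differed little. Dag1 had 13167 reads in the WT library and 13621 in the knockout, 1.05-fold higher (1.03 to 1.08), and 99.8% of its listed length was covered in both. Its log2 ratio of 0.07 lay inside the middle 50% of all expressed genes, which ran from -0.14 to 0.13.

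The sarcoglycans went both ways. The paralogues Sgca and Sgce, which take the same place in the subcomplex, differed in opposite directions. Sgce, which is used beyond striated muscle, had 1603 reads in WT and 2144 in the knockout, 1.36-fold higher (1.28 to 1.45). Its log2 ratio of 0.43 was the largest of the 8 on the scale of RPKM + 1 and exceeded that of 96.5% of expressed genes. By reads per library read Dmd differed more, at 1.41-fold. Sgca had 933 and 774 reads, 1.18-fold lower in the knockout (1.07 to 1.30).

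Sgce thus stood at 1.34 times the Sgca level in WT (1.23 to 1.45) and at 2.16 times in the knockout (1.99 to 2.35), a ratio 1.61-fold higher (1.43 to 1.81). This pair was chosen after its values were seen. Summed, the pair went from 32.0 to 36.5 RPKM. Sgcb, the core beta subunit, had 1229 and 1118 reads, 1.08-fold lower, with an interval from 0.99 to 1.17 that includes no difference. Sgcd had 237 and 257 reads, 1.10-fold higher in the knockout, and its interval of 0.92 to 1.32 also includes 1.

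**Figure D3:**
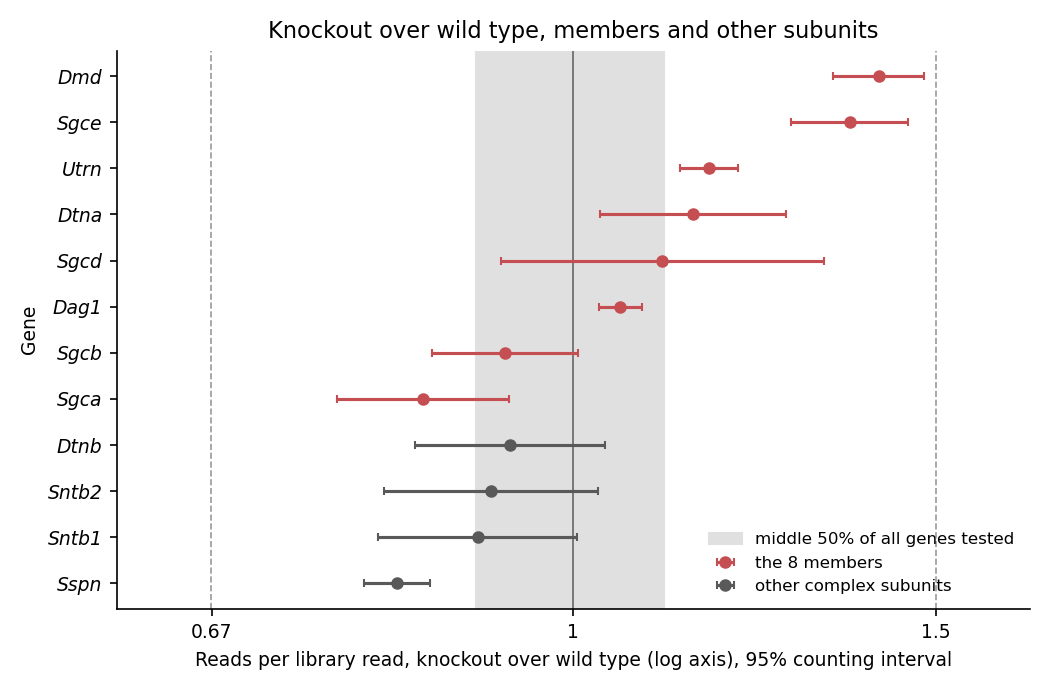
Reads per library read, knockout over wild type (log axis), with 95% counting intervals as bars, for the 8 members (red) and the 4 other subunits examined that were expressed (grey points). The shaded band holds the middle 50% of all expressed genes on the same scale and dashed lines mark 1.5-fold. Dmd at 1.41 and Sgce at 1.36 lie highest, and Sgca at 0.85 is the lowest of the 8.

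Where reads lay along the sarcoglycan genes limits what their levels stand for. For the 7 members with at least 500 reads in both libraries, only Sgca differed by 5 points or more in the share of its listed length that was covered. It went from 95.01% in WT to 86.48% in the knockout. Among 9084 genes with that many reads, 10.8% differed by as much in either direction, so a single such member is near the background. For Sgcd only 12.1% and 12.7% of the listed length was covered, about 540 and 567 bases of 4453. Of 1273 genes with 150 to 400 reads in both libraries, 0.314% were covered under 15% in WT, and the median was 91.4%.

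The listed Sgcd length equals that of 1 transcript in the GENCODE M21 annotation, Sgcd-204, a processed transcript that shares 350 bases with protein-coding Sgcd transcripts. The match rests on length alone, since the annotation used for counting is not given in the sources used here. Across 17196 genes found in that annotation, 61.5% had a listed length equal to that of a transcript. If the counting followed that transcript, the Sgcd value measures a small part of the coding message. Per covered length, Sgcd would stand at 11.1 RPKM in WT and 11.7 in the knockout, above Sgcb (8.48 and 7.89) in place of last. On that scale the order was not the same in both libraries. Utrn lay below Sgca in WT (14.2 and 14.4) and above it in the knockout (16.6 and 13.4). The WT gap was small beside the counting interval of Sgca per listed length (12.8 to 14.6), so their order in WT is not settled. The low rank of Sgcd therefore depends on the length it is divided by, whereas its ratio between the libraries was 1.05 on that scale.

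The listed length of Sgce, 2212 bases, equals that of Sgce-208, a transcript with a retained intron, of which 1245 bases lie in coding transcripts. Reads covered 1824 bases in WT and 1895 in the knockout, more than those 1245, so some covered bases lay outside the coding transcripts if that model was used. The gene total does not separate spliced from unspliced Sgce reads, and their part in its higher level was not tested. The listed lengths of Dmd, Utrn, Dag1 and Sgca equal those of protein-coding transcripts. For Sgcb and Dtna no transcript of the listed length was found.

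**Figure D4:**
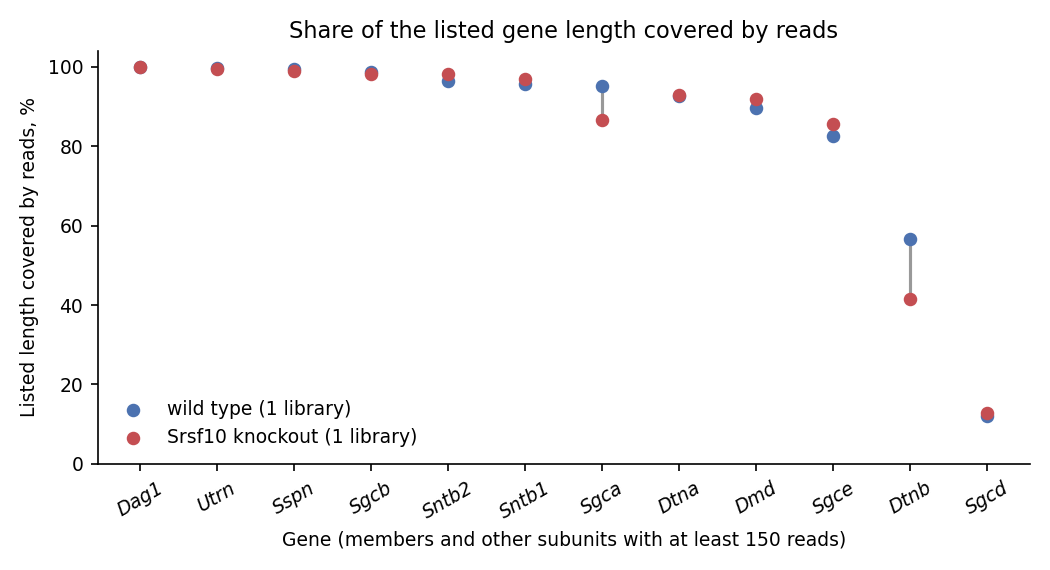
Share of the listed gene length covered by reads, in %, in the wild-type and knockout libraries, for members and other subunits examined with at least 150 reads in both. Most genes lie above 80%; Sgcd lies at 12.1% and 12.7%, Dtnb goes from 56.5% to 41.5% and Sgca from 95.01% to 86.48%.

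Alpha-dystrobrevin, the dystrophin-binding scaffold encoded by Dtna, had 689 reads in WT and 773 in the knockout, 1.14-fold higher (1.03 to 1.27). Of its listed length, 92.5% and 92.9% was covered. Its log2 ratio of 0.14 lay just above the upper quartile of all expressed genes, 0.13.

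Of 8 other subunits examined, 4 were expressed. All 4 had a log2 ratio below 0 and none was 1.5-fold apart, with a median of -0.12 and values from -0.28 to -0.08. Of all expressed genes 48.2% were above 0, so 4 genes on one side are a small count. Sspn, sarcospan, the small membrane protein that binds the sarcoglycans, was the most abundant. It had 6332 reads in WT and 5101 in the knockout, 1.22-fold lower (1.17 to 1.26). The beta-syntrophin genes Sntb1 (6.95 and 6.24 RPKM) and Sntb2 (3.33 and 3.03) were 1.11-fold and 1.10-fold lower, and both intervals include no difference. Dtnb, beta-dystrobrevin, was 1.07-fold lower (0.97 to 1.19), while its covered share went from 56.5% to 41.5%, a drop of at least 10 points that 1.72% of genes with at least 500 reads showed. Its listed length of 3768 bases equals that of Dtnb-205, a retained-intron transcript with 1168 bases in coding transcripts.

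Skeletal muscle markers, given beside Sgca, went both ways. Of 5 expressed, 4 had a log2 ratio above 0 and 1 below, with a median of 0.36. Tnni2 and Tnnt3, fast troponin genes, were 3.97-fold and 2.08-fold higher in the knockout, while Ckm was 1.36-fold lower. Below 1 RPKM, Myod1 had 18 and 2 reads, Myog 41 and 18 and Myh3, the embryonic myosin heavy chain, 87 and 8. The 9 skeletal muscle markers listed summed to 357 RPKM in WT and 444 in the knockout, most of it Acta1 and Ckm, which the embryonic heart also expresses. Myf6 had no read in WT and 4 in the knockout. Their part in the Sgca value was not tested. The other subunits below 1 RPKM had few reads, with Sgcz at 8 and 1 reads, Sntg1 at 8 and 3, Sntg2 at 71 and 74 and Nos1, the neuronal nitric oxide synthase that binds syntrophin in skeletal muscle, at 25 and 31.

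Cell type markers beside the complex were as follows. Smooth muscle, which also carries sarcoglycans, had 8 markers with a summed level of 2361 RPKM in WT and 2816 in the knockout. Most of that sum was Myl9 and Acta2. Of the 8, 5 had a log2 ratio above 0 and 3 below, with a median of 0.05. Tagln was 1.86-fold higher and Acta2 went from 818 to 1024 RPKM, while Myh11, the defining myosin of smooth muscle, stood at 1.47 and 1.35 RPKM. The 8 fibroblast and mesenchyme markers all had a log2 ratio below 0, with 3 of them, Col1a1, Col1a2 and Dcn, at least 1.5-fold lower, a median of -0.42 and a sum of 891 and 637 RPKM. Among cardiomyocyte markers 3 of 10 were above 0, Myh6, Ryr2 and Ttn, and the median was -0.06. The 8 endothelial markers had a median of 0.02 (337 and 329 RPKM summed), with Cldn5 1.80-fold lower at 312 and 170 reads, and the 6 epicardial markers one of 0.25 (127 and 149). Neural and glial markers summed to 10.1 and 9.50 RPKM, with 2 of 4 expressed genes above 0 and a median of 0.03. The neuronal gene Elavl4 had 183 and 255 reads, while Sox10, a neural crest factor below 1 RPKM, had 50 reads in WT and 2 in the knockout. Blood markers summed to 2999 and 2809 RPKM, mostly the embryonic globins Hbb-y and Hba-x, and went both ways. Of 5 expressed, 2 were above 0, both leukocyte genes: Cd68 had 223 and 358 reads, 1.64-fold higher in the knockout, and Lyz2 was 1.40-fold higher. Below 1 RPKM, the leukocyte gene Ptprc had 98 and 155 reads and the red cell factors Gata1 and Klf1 24 and 58 and 32 and 48. The part of these cell types in the Sgce and Sgca values was not tested.

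Genes that add the laminin-binding sugar to dystroglycan were balanced. Of 15 examined, 14 were expressed, 8 with a log2 ratio above 0 and 6 below, none 1.5-fold apart, and the median was 0.01. Pomgnt1, a transferase that extends the O-mannose sugar, was the most abundant at 20.8 and 18.1 RPKM. Gmppb, which makes the mannose donor, differed most at 4.10 and 3.21 RPKM, 1.28-fold lower in the knockout (1.11 to 1.48).

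Matrix ligands of dystroglycan were balanced as well: 5 of 9 were above 0, none was 1.5-fold apart and the median was 0.02. Bgn, biglycan, was the most abundant at 133 and 141 RPKM. Slit2, a secreted guidance protein that binds dystroglycan, differed most at 24.0 and 31.2 RPKM, 1.30-fold higher (1.26 to 1.34). Lama2, the laminin chain of mature muscle, named after its values were seen, had 13.4 and 13.0 RPKM.

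Intracellular partners had 4 of 11 expressed members above 0, none 1.5-fold apart and a median of -0.01. Flnc, the muscle filamin that binds sarcoglycans, was the most abundant at 82.6 RPKM in WT and 66.9 in the knockout, or 1.23-fold lower (1.21 to 1.26). Krt8, a keratin, differed most, 1.44-fold higher (1.27 to 1.63) at 6.15 and 8.88 RPKM.

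Other muscle membrane and laminin receptor genes had 8 of 13 expressed members above 0, none 1.5-fold apart and a median of 0.08. Anxa6, an annexin, was the most abundant in WT (211 and 193 RPKM) and Itgb1, the integrin beta 1 subunit, in the knockout (196 and 212). Cavin1, a coat protein of caveolae, differed most on the scale of RPKM + 1, with a log2 ratio of -0.55, and went from 106 to 72.1 RPKM, 1.47-fold lower. On the scale of reads per library read, Cavin4, a muscle cavin, differed more, with 116 and 67 reads, 1.70-fold lower.

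**Figure D5:**
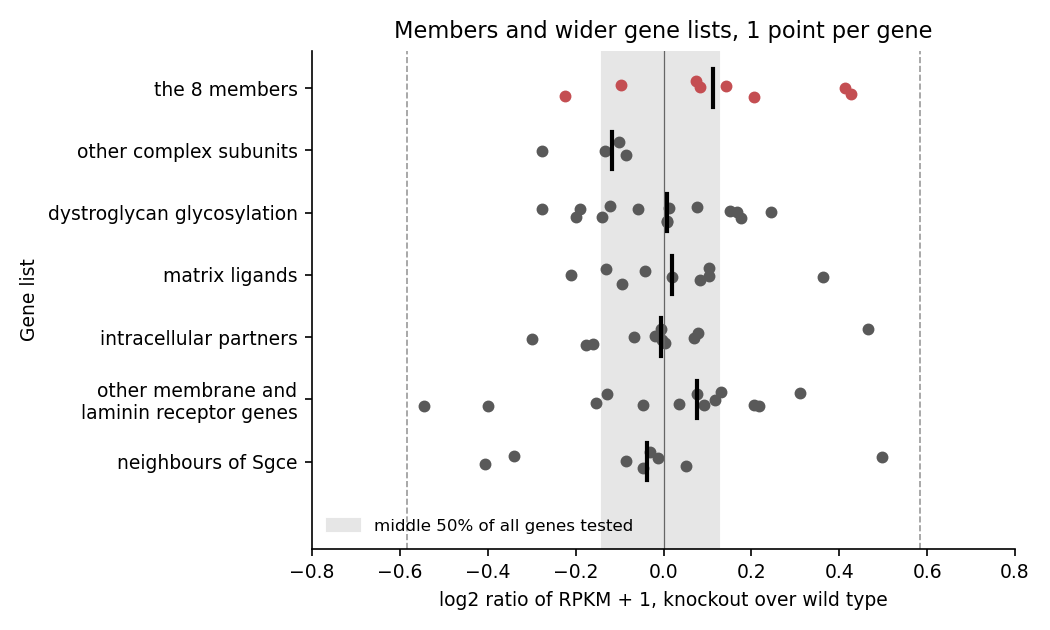
Log2 ratio of RPKM + 1, knockout over wild type, 1 point per expressed gene for the 8 members (red) and 6 wider lists, with the list median as a black bar. The band is the middle 50% of all expressed genes and dashed lines mark 1.5-fold, which no gene passes. The 4 other complex subunits shown all lie below 0 and 6 of the 8 members lie above it, beside 48.2% of all expressed genes.

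Sgce lies beside Peg10 in a cluster of imprinted genes, and in the mouse both are expressed from the paternal copy. Of 9 neighbours listed, 8 were expressed, 2 above 0 and 6 below, none 1.5-fold apart, with a median of -0.04. Peg10, named for its position after its values were seen, had 3560 reads in WT and 3276 in the knockout, 1.07-fold lower (1.02 to 1.12), while Sgce was 1.36-fold higher. Casd1, the most abundant neighbour, stood at 19.6 and 19.2 RPKM. Ppp1r9a, a neuronal actin-binding protein gene in the cluster, differed most on the scale of RPKM + 1, from 9.25 to 13.5 RPKM, 1.46-fold higher (1.39 to 1.52). On the scale of reads per library read Tfpi2, a protease inhibitor gene, differed more, with 136 and 86 reads, 1.55-fold lower (1.18 to 2.06). The listed length of Ppp1r9a is 9547 bases, in a class of 331 genes with a median log2 ratio of 0.08.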

How the data were processed

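RNA of embryonic day 13.5 hearts was sequenced from 1 wild-type and 1 Srsf10 knockout sample, grouped by the genotype in the labels. The submitters' processing notes name Bowtie 0.12.2 and mm9; the annotation, filters and strand setting were not given in the sources used here. The authors deposited counts of uniquely mapped reads, per the file headers. The authors' RPKM equals reads over listed length and library total (largest relative deviation 2.2e-14), and their coverage column gives the percent of the listed length covered, reaching 100.06 in 1 table. Genes absent from one table were given 0 reads there.

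Symbols were joined by Ensembl identifier (17196 of 17646 genes). Log2 ratios of RPKM + 1 were computed for genes that reached 1 RPKM in one library or both. Folds compare reads per library read, with exact conditional binomial 95% intervals (scipy 1.17.1) that were tested on simulated data and cover counting error only. No test was run, since a single library per group gives no measure of spread. Rescaling by edgeR 4.0.16 (TMM) or DESeq2 1.42.0 size factors shifted log2 ratios by -0.001 and -0.005. Chromosomes, transcripts and shared sequence came from GENCODE M21 (GRCm38). Promoter stretches came from RefSeq, which matched 6 of the members searched. Dtna was not searched there. Of the 31-base words of a member's longest transcript, at most 1.245% (Dtna) occur in other genes' transcripts. Exons of Dtna overlap 90 bases of an antisense gene.

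The members and gene lists were chosen with earlier results of these data known. Some genes of the wider lists are not reported here and enter none of the list counts. Genes named were all members and other subunits examined and, of each wider list, its most abundant expressed gene, the one with the greatest absolute log2 ratio and any past 1.5-fold. Alternatives were pseudocounts, filters, scalings, fold rules and covered-share rules; centring by length and levels per covered length were added after the data were seen.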

Additional observations from a re-analysis of the deposited data

How the results depend on the processing

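No paired analysis was possible because each genotype has 1 library; for the same reason no library could be left out and no value has a replicate spread. The count of 0 members past 1.5-fold stayed 0 under every pseudocount, filter and scaling tried, under centring by length and per covered length; at the 25% rule it was 2 (Dmd and Sgce). No member's direction turned. Of 78 single-member values under alternatives, 73 stayed within counting error and 5 moved beyond it, all of Dmd or Utrn: the Dmd log2 ratio ran from 0.24 centred by length to 0.49 without a pseudocount, and that of Utrn from 0.04 to 0.22. Of the 59 expressed genes in the wider lists, 0 passed 1.5-fold; 2 did with a pseudocount of 0.1 and 2 without one (Cavin4 and Tfpi2 in the latter case, both lower in the knockout and of low level, where the added 1 weighs most), and 7 passed the 25% rule. The Utrn to Dmd ratio was 2.69 (WT) and 2.23 (knockout) with reads not divided by length, and 2.82 and 2.45 with a pseudocount of 1; it was lower in the knockout in each case. With 2 points in place of 5, 3 of 7 members differed in covered share, and with 10 points 0 did. For all genes the share in either direction was counted only at 5 points, where it was 10.8%. The count at 2 points therefore has no background to be read against. Depth limits Sgcd most among the members, at 237 wild-type reads.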
